A study of Mus musculus with 15 samples.

Results

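Expression in tumours of the mouse mammary model 2151R was set against that in tumours of the model 2208L. The samples were taken by the model named in their titles, which gave 4 samples of 2151R and 8 of 2208L, 12 of the 15 samples of the series. All are labelled mammary tumours of the mouse strain Balbc (BALB/c) with the genotype p53-NULL, so the loss of p53, the tumour suppressor that Trp53 encodes, is shared by both groups and by the 3 other samples. The titles of 2151R hold a code number (replicate 1), the code 53ca (replicate 2), NT2 (replicate 3) and NT (replicate 4). Those of 2208L hold ROSEN (replicate 1), PBS (replicates 2 to 5) and 3day nt (replicates 6 to 8). A check on titles with NT, nt or PBS used replicates 3 and 4 of 2151R and 2 to 8 of 2208L. What these codes stand for is not stated, no age or drug dose is given, and the sources used here do not say whether the samples of a group came from separate mice. P-values therefore measure only the spread between these samples, which may be partly technical.

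Mammary tumours of mice range from forms that keep the traits of epithelium to forms that have taken on those of mesenchyme. Epithelial cells are held together by tight junctions, adherens junctions and desmosomes, and factors such as Grhl2, Ovol2 and Esrp1 keep those genes on. In an epithelial-mesenchymal transition, repressors such as Zeb1, Snai1 and Twist1 silence them, and cells gain the intermediate filament vimentin.

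Each value is the log2 expression of a gene relative to a reference level of that same gene, as the authors deposited it, so a difference of 1 is a fold of 2 and levels of different genes cannot be compared. The depth is unknown because the files hold no counts. All 4 samples of 2151R come from 1 range of library numbers that no other sample shares, so effects of the model and of that range cannot be told apart. Skeletal muscle markers were high in 3 samples: their mean over 11 genes was 6.35 in replicate 3 of 2151R, 10.50 in replicate 6 and 9.96 in replicate 8 of 2208L, against -3.47 to 3.07 in the other 9. Trp53 was 0.20, 0.29, 0.09 and 0.19 in replicates 1 to 4 of 2151R and -0.29 to 0.16 (median -0.13) in 2208L, and it did not pass the test (difference 0.28, SE 0.25, limma adjusted p = 0.367). Centred values do not show whether Trp53, or a marker of mammary tissue, is expressed in a sample.

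Among 17271 genes, limma called 4508 (26.1%) as higher in 2151R and 3926 (22.7%) as lower, at a p-value below 0.05 after Benjamini-Hochberg adjustment. The median difference over all genes was 0.10. The 4 values of 2151R lay above all 8 of 2208L at 20.6% of genes and below all 8 at 18.2%, so the groups did not overlap at 38.8%. Against the 4 PBS samples alone, 50.4% of genes were called, 27.5% higher and 22.9% lower, and against the 3 samples titled 3day nt 54.8%, with 27.7% and 27.1%. These checks share the samples of 2151R. A total of 2961 genes (17.1%) were higher and 2752 (15.9%) lower in all 3 comparisons with no overlap of the 12 values. Differences of at least 4 log2 units were found at 777 genes. Each gene list is read against these shares. Members of a list were named by rule only where the groups did not overlap, so the lack of overlap at such genes is not a result. The exceptions are 54 regulators and targets named whatever their values, and genes said to be chosen after their values were seen.

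**Figure D1:**
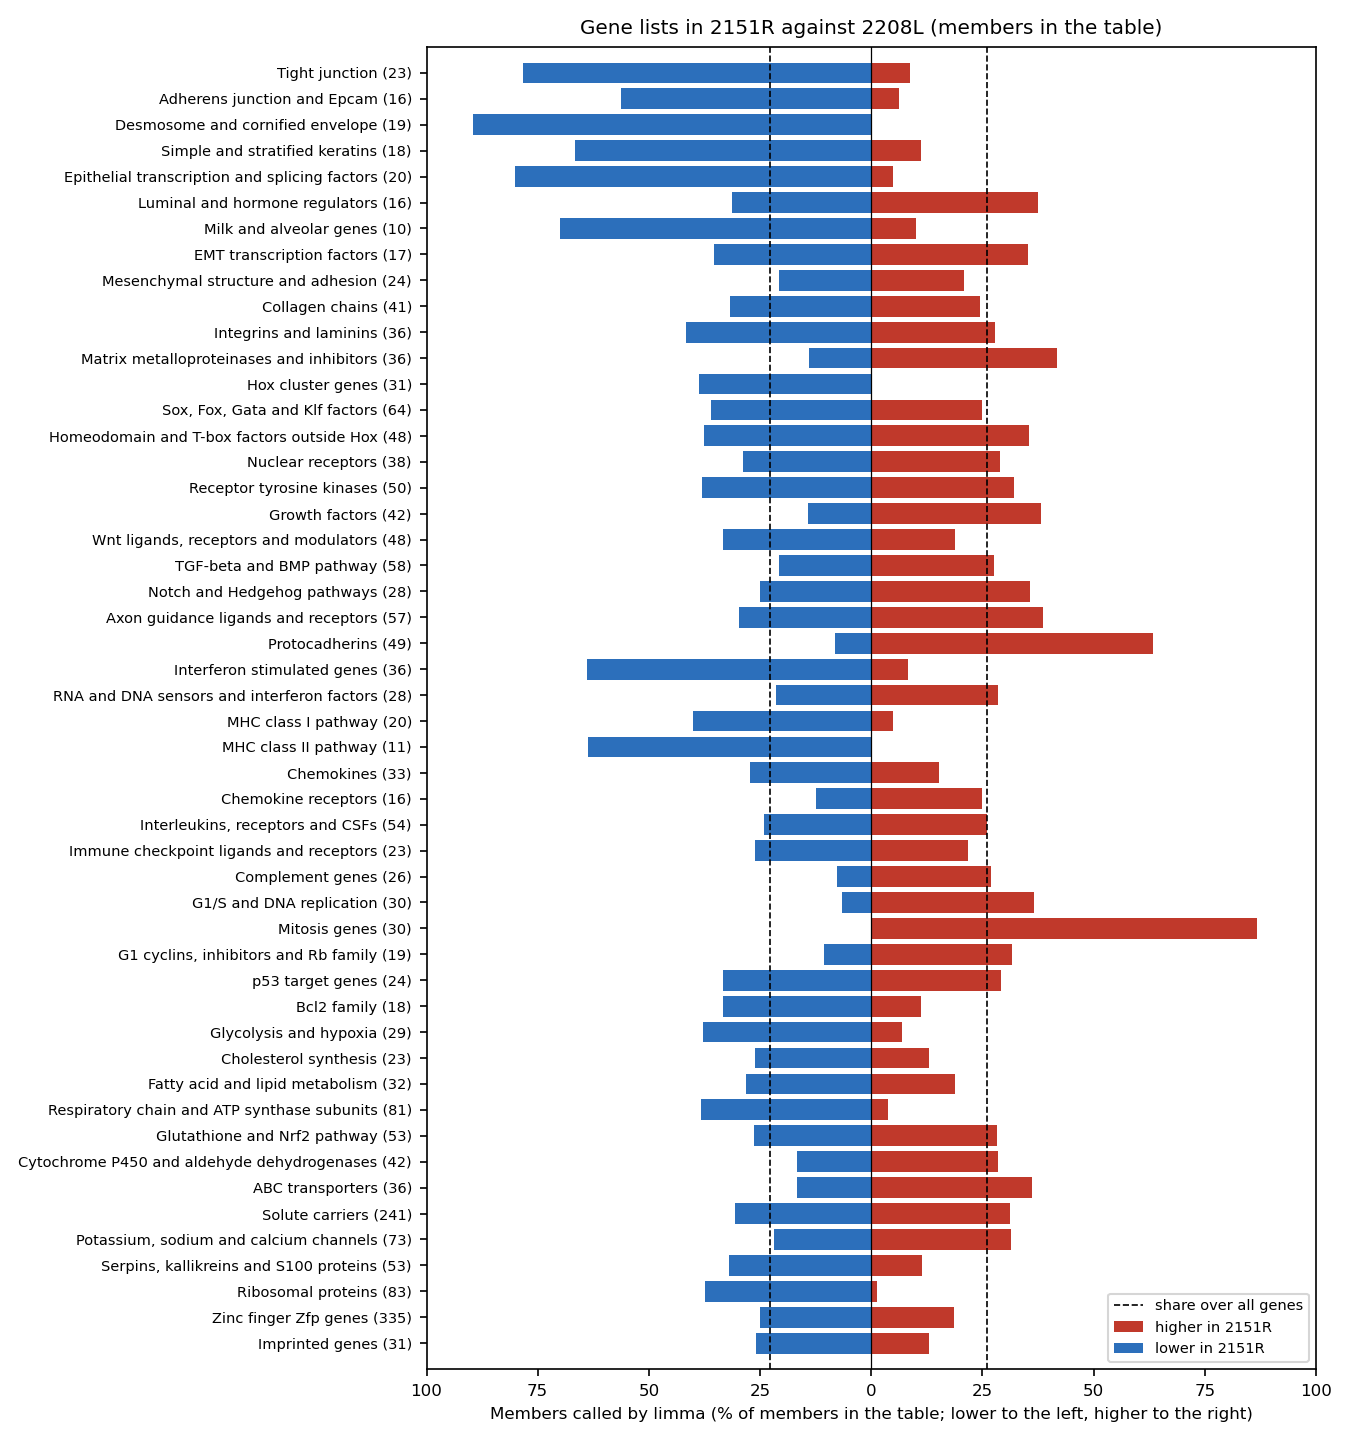
Share of the members of each gene list called higher (right) or lower (left) in 2151R than in 2208L by limma at an adjusted p under 0.05, in percent of members in the table. Dashed lines mark the shares over all genes, 26.1% higher and 22.7% lower. Desmosome, tight junction and epithelial factor lists reach far to the left and mitosis genes to the right.

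Among called genes with no repeated value, no overlap and the same call in all 3 comparisons, the following were among the 10 largest differences in each direction. Nptx1, a secreted pentraxin of synapses, was 8.05, 7.43, 7.65 and 8.25 in 2151R and -5.50 to -1.72 (median -3.78) in 2208L (difference 11.50, SE 0.71, limma adjusted p = 2.36e-08). Pax6, a paired-box factor of eye and brain development, was 4.34, 3.68, 3.50 and 3.70 in 2151R and -6.86 to -4.09 (median -5.86) in 2208L (difference 9.53, SE 0.45, limma adjusted p = 1.48e-09). Sox2, a factor of stem and neural progenitor cells, was 4.23, 3.86, 4.20 and 4.12 against -6.05 to -2.09 (median -4.54) (difference 8.60, SE 0.68, limma adjusted p = 2.7e-07). No overlap and a large difference were conditions for naming these genes, so the distance between the groups is not a result. The phosphate-regulating endopeptidase Phex differed by 9.22. Also among the first 10 were Ndst3 (8.98), Prdm8 (8.39), the kinase gene Sgk2 (8.28), the mast cell protease Mcpt2 (8.15) and Trim66 (7.70).

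On the other side, Alkal2, the ligand of the kinases Alk and Ltk, was -1.56, -1.97, -1.20 and -0.13 in 2151R and 11.03 to 12.08 (median 11.68) in 2208L (difference -12.84, SE 0.47, limma adjusted p = 1.48e-10). Wfdc18, a secreted protein of the mammary gland, was -7.34, -7.46, -7.05 and -7.75 against 3.59 to 5.47 (median 4.50) (difference -11.84, SE 0.31, limma adjusted p = 1.19e-11). The groups did not overlap at either gene, which was again a condition for naming them. The RNA-binding protein Igf2bp1 differed by -10.45, the proton pump subunit Atp6v1c2 by -10.42, Faim2 by -10.40 and the noradrenaline transporter Slc6a2 by -10.11. Sox8 (-9.16), the zinc transporter Slc30a2 (-8.94) and the enzymes Acox2 (-8.79) and Aass (-8.79) complete the first 10.

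Epithelial adhesion genes were lower in 2151R across all 3 kinds of junction. Of 23 tight junction genes, 18 were lower and 2 higher, with a median difference of -5.10 against 0.10 over all genes. The claudins Cldn7 (-8.34), Cldn3 (-7.33) and Cldn4 (-7.21), which seal the space between cells, and Marveld2 (-6.74), a protein of the corners where 3 cells meet, led the list. Cldn4 was -5.68, -6.08, -4.44 and -4.80 in 2151R and 1.39 to 2.53 (median 2.0) in 2208L. The claudin Cldn12, in contrast, was higher (1.64, SE 0.12, limma adjusted p = 1.57e-07), with 1.49, 1.13, 1.22 and 1.35 against -0.47 to -0.05 (median -0.41). No overlap of the groups was a condition for naming these claudins.

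Of 16 adherens junction genes, 9 were lower and 1 higher. Cdh1, the epithelial cadherin, was -5.34, -6.13, -5.36 and -5.34 in 2151R and 0.01 to 0.56 (median 0.30) in 2208L (difference -5.84, SE 0.18, limma adjusted p = 3.63e-11). Epcam, a surface protein of epithelial cells, was -5.97, -6.30, -5.08 and -5.46 against 0.50 to 1.37 (median 0.87) (difference -6.58, SE 0.26, limma adjusted p = 2.79e-10), which is 95.7-fold lower. Neither gene had a sample of one model within the range of the other. Prom1 (-6.34) and Muc1 (-4.90), both proteins of the apical surface, and Nectin2 (-2.10) were lower, and Nectin3 was higher (1.02), a call lost in the check on titles with NT, nt or PBS (0.93). Of 19 desmosome and cornified envelope genes, 17 were lower (median difference -4.38). Among them, Dsg3 (-8.62) and Dsp (-6.35) build the desmosome, St14 (-6.55) is a membrane protease with Spint2 (-6.36) as its inhibitor, and Perp (-5.80) is a p53 target of the desmosome.

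The letters CACCTG, the E-box that repressors of the Zeb and Snai families bind, were searched on both strands in the 250 bases before the start sites of genes, in RefSeq sequences of the build GRCm38.p6. The window held CACCTG in 14 of 28 promoters of tight junction genes (50%), from 19 of the 23 genes, in 4 of 13 of the adherens junction list (30.8%), 2 of 8 of the desmosome list (25%), 3 of 15 of the epithelial transcription and splicing factors (20%) and 17.2% of all 32851 promoters. Among genes lower in all 3 comparisons with no overlap it was in 22.9% of promoters, and among genes higher in 13%. Cdh1, Grhl2 and Esrp1 had no entry in that table. These shares are descriptions and no binding was measured. The 120 bases before the start site of 3 junction genes are shown as examples, chosen after the values were seen, from genes that differed by over 6 log2 units, with CACCTG or its reverse complement CAGGTG in capitals, 5′ to 3′ on the strand of the gene. Epcam lies at chr17:87635859-87635978 (plus strand), Cldn4 at chr5:134946935-134947054 (minus strand) and Lsr, which encodes a protein of tricellular junctions (difference -6.42), at chr7:30973470-30973589 (minus strand), and no annotated exon overlaps these windows.
Epcam: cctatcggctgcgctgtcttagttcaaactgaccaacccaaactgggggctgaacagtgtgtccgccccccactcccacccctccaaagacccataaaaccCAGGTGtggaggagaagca
Cldn4: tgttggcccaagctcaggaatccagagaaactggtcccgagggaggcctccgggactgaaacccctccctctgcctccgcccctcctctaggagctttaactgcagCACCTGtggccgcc
Lsr: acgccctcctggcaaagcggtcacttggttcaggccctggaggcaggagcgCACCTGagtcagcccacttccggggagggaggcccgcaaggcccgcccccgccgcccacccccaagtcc

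Keratins, the filaments of epithelial cells, did not move as 1 block. Of 18 keratin genes, 12 were lower and 2 higher. Krt8, of simple and luminal epithelium, was -6.52, -6.55, -4.84 and -5.15 in 2151R and 0.22 to 1.21 (median 0.47) in 2208L (difference -6.27, SE 0.36, limma adjusted p = 1.11e-08). Its usual partner Krt18 differed by less (-2.04, SE 0.24), and Krt7 (-7.23), Krt23 (-7.12) and Krt79 (-6.41) were lower. Of the basal keratins, Krt14 was lower (-2.08, SE 0.47, limma adjusted p = 0.00261) and Krt5 higher (4.73, SE 1.11, limma adjusted p = 0.00314). The Krt14 call was lost in the check on titles with NT, nt or PBS (-1.87). Krt5 was 2.70, 2.16, 2.87 and 3.14 in 2151R and -4.59 to 2.48 (median -2.53) in 2208L, so the groups overlap, and some samples share an exact value. Against 3day nt, Krt5 missed the threshold (3.34, limma adjusted p = 0.0515).

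Factors that maintain epithelial identity were lower together. Of 20 epithelial transcription and splicing factors, 16 were lower and 1 higher, with a median difference of -5.49. Grhl2, a grainyhead factor, was -4.04, -4.96, -4.50 and -4.51 in 2151R and 0.00 to 1.45 (median 1.20) in 2208L (difference -5.51, SE 0.27, limma adjusted p = 2.65e-09). Ovol2, which represses Zeb1, was -6.22, -6.40, -5.61 and -6.58 against 0.00 to 1.0 (median 0.44) (difference -6.71, SE 0.25). Esrp1, which directs epithelial splicing, was -6.01, -6.88, -5.88 and -6.33 against 0.08 to 0.60 (median 0.44) (difference -6.68, SE 0.18). Each of the 4 samples of 2151R lay below every sample of 2208L at these genes. Tfap2c (-7.85), Elf3 (-6.73), Ovol1 (-6.50) and Elf5 (-5.39), the last a factor of alveolar cells, were lower. Trp63, the p53 relative of basal cells, was lower by a smaller step (-1.47, SE 0.31, limma adjusted p = 0.00164). Klf4 was the higher member (2.36, SE 0.39), with 1.24, 1.63, 1.13 and 1.40 in 2151R against -2.06 to -0.24 (median -1.01).

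**Figure D2:**
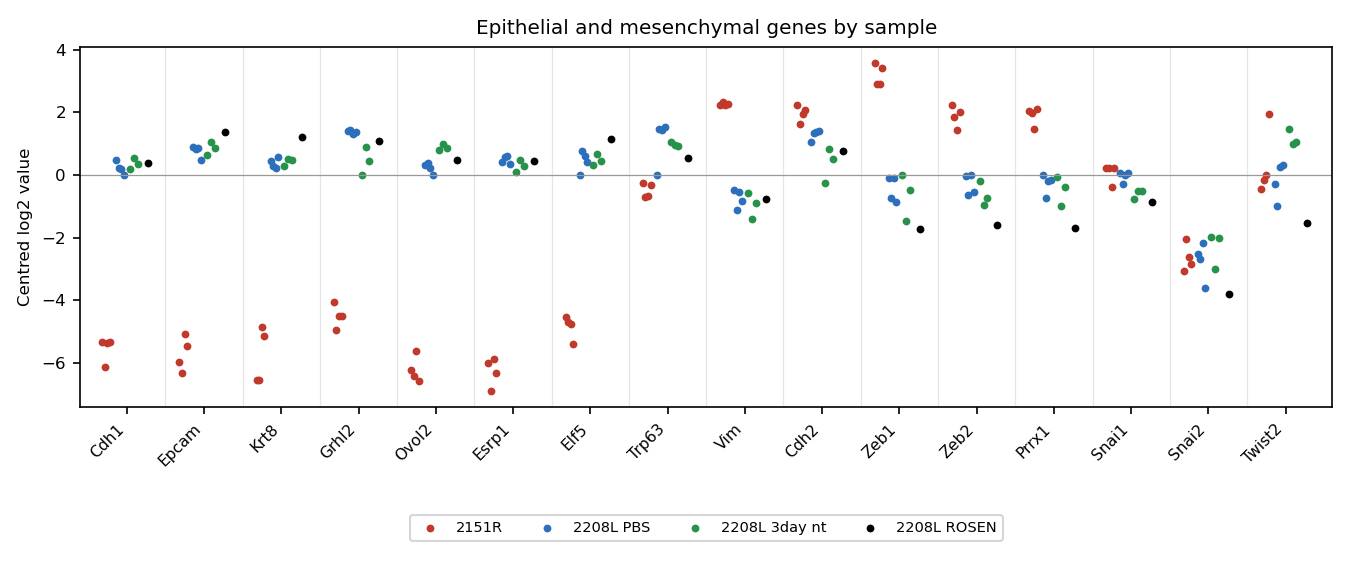
Deposited centred log2 values of 16 epithelial and mesenchymal genes in the 12 samples. Each point is 1 sample, in red for 2151R, blue for 2208L PBS, green for 2208L 3day nt and black for 2208L ROSEN. The samples of 2151R lie below all of 2208L at Cdh1, Epcam, Grhl2, Ovol2, Esrp1 and Elf5, above them at Zeb1, Zeb2, Prrx1 and Vim, and among them at Snai1, Snai2 and Twist2.

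Luminal and hormone regulators split. Of 16, 6 were higher and 5 lower (median difference 0.51). The progesterone receptor Pgr was 2.45, 1.35, 3.31 and 3.48 in 2151R and -3.26 to 0.61 (median -2.08) in 2208L (difference 4.16, SE 0.71, limma adjusted p = 0.000309). The hormone-responsive gene Greb1 (3.23) and the luminal factor Gata3 (1.87) were also higher with no overlap. The oestrogen receptor Esr1 did not pass the test (1.26, limma adjusted p = 0.0646). It did without replicate 6 (1.48) or replicate 8 of 2208L (1.43) and against PBS (1.53, limma adjusted p = 0.00744). The luminal pioneer factor Foxa1 did not pass it either (-0.66, limma adjusted p = 0.103), but did without replicate 3 of 2151R (-0.93). Erbb3 (-5.45) and Erbb2 (-2.83), receptors of the EGF family, Xbp1 (-2.01) and Stat5a (-1.26), the mediator of prolactin, were lower. Of 10 milk and alveolar genes, 7 were lower and 1 higher, among them the iron-binding lipocalin Lcn2 (-7.38) and the caseins Csn1s1 (-3.83) and Csn3 (-3.0). Of 7 markers of normal luminal mammary cells, 5 were lower, and their mean ran from -1.33 to -0.18 in 2151R and from 1.75 to 2.83 in 2208L.

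Mesenchymal regulators were called in both directions. Of 17 factors known for epithelial-mesenchymal transition, 6 were higher and 6 lower. Zeb1 was 3.57, 2.91, 2.92 and 3.41 in 2151R and -1.73 to 0.00 (median -0.59) in 2208L (difference 3.88, SE 0.35, limma adjusted p = 8.86e-07). Zeb2 (2.47, SE 0.28), Prrx1 (2.42, SE 0.29) and Prrx2 (3.12) were higher without overlap. Snai1 (0.41, limma adjusted p = 0.126), Snai2 (0.08, limma adjusted p = 0.867) and Twist2 (0.17, limma adjusted p = 0.824) did not pass the test, and their groups overlapped. After quantile normalization Snai2 was called higher (0.93, limma adjusted p = 0.00916). Twist1 (-0.79, limma adjusted p = 0.000347), Snai3 (-5.06), Foxc1 (-2.04), Foxq1 (-5.13) and Six2 (-5.35) were lower. Snai1 passed against 3day nt (0.66) and not against PBS (0.10).

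Vimentin, encoded by Vim, was 2.23, 2.32, 2.24 and 2.27 in 2151R and -1.39 to -0.48 (median -0.79) in 2208L (difference 3.09, SE 0.17, limma adjusted p = 7.63e-09), which is 8.51-fold higher. Of 24 mesenchymal structure and adhesion genes, however, 5 were higher and 5 lower, a share near that over all genes. S100a4 (3.72), the receptor Axl (2.49), Cd44 (1.26) and the neural cadherin Cdh2 (1.09, SE 0.28, limma adjusted p = 0.00551) were higher. Ccn2 (-2.71) and Nt5e (-2.11) were lower. The Cdh2 call was lost in the check on titles with NT, nt or PBS (1.11). Fibroblast and pericyte markers moved little, with 3 of 10 higher and 1 lower, and their mean ranged from 0.28 to 1.33 in 2151R and from -1.33 to 1.03 in 2208L. In bulk tumour tissue, fewer cells of a type and less RNA per cell cannot be told apart.

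Matrix genes changed by family. Of 41 collagen chains, 13 were lower and 10 higher, and the higher count was 5 without replicate 4 of 2151R and 4 in the check on titles with NT, nt or PBS. All 3 chains of collagen IX, a cartilage collagen, were lower, from -8.68 to -5.30. Col9a1 was -4.21, -4.72, -4.59 and -4.86 in 2151R and 3.39 to 4.73 (median 3.96) in 2208L. Col25a1 (-7.12) and the basement membrane chain Col4a6 (-6.41) were lower, and Col27a1 (2.89), Col5a3 (2.19) and Col17a1 (1.74) higher, of which Col17a1 was not called in the check on titles with NT, nt or PBS (1.52). Of 36 integrins and laminins, 15 were lower and 10 higher, with 17 and 7 against PBS and 11 and 13 against 3day nt. The laminin chain Lamb3 (-4.70), of the basement membrane of epithelium, and the epithelial integrin Itgb6 (-5.68) were lower, while Itgb7 (6.31), an integrin of leukocytes, Itga7 (3.68), Itga5 (2.48) and Itga4 (2.07) were higher. Of 36 metalloproteinases and inhibitors, 15 were higher and 5 lower. Mmp9, a gelatinase, was 4.87, 4.34, 4.93 and 5.63 in 2151R and -1.42 to 1.55 (median -0.07) in 2208L (difference 4.93, SE 0.45, limma adjusted p = 1.08e-06), with no overlap.

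Developmental regulators differed in both directions. Of 31 Hox genes, which pattern the body axis, 12 were lower. Of the 12, 10 belong to the Hoxa cluster, which has 11 genes in the table, and 2 to Hoxc. Hoxa13 was -1.87, -0.62, -1.26 and -1.23 in 2151R and 4.19 to 5.71 (median 5.57) in 2208L (difference -6.45, SE 0.40, limma adjusted p = 2.12e-08). Hoxa5 was -4.32, -3.67, -4.18 and -3.89 against 0.08 to 1.19 (median 0.53) (difference -4.70, SE 0.37), and Hoxa10 (-4.97) and Hoxa6 (-4.22) were lower as well. Of 48 homeodomain and T-box factors outside Hox, 17 were higher and 18 lower. Among the 10 Irx and Dlx homeobox genes, a group formed after their values were seen, 9 were lower and 1 higher, among them Dlx1 (-5.44) and Irx5 (-3.92). Lhx2 (6.96), Eya1 (6.86) and Msx3 (6.64) were higher, and Eya2 (-5.56) was lower.

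In the Sox, Fox, Gata and Klf families, 16 of 64 were higher and 23 lower. Sox10, a factor of neural crest and of mammary progenitor cells, was -5.98, -7.05, -6.55 and -6.58 in 2151R and 0.00 to 0.87 (median 0.62) in 2208L (difference -7.11, SE 0.21, limma adjusted p = 2.09e-11). Of 7 Schwann and nerve markers, which include Sox10, 4 were lower. Sox8, a relative of Sox10, was -8.06, -7.57, -8.77 and -7.42 against 0.69 to 1.53 (median 1.32). Sox9, the third member of that subgroup, did not pass the test (0.06, limma adjusted p = 0.88), with 0.50, -0.24, -0.32 and 0.01 against -0.38 to 0.17 (median -0.05). Foxa3 (-7.07) was lower, and Foxi1 (4.08), Gata2 (3.91) and Foxf1 (3.81) were higher. Of 38 nuclear receptors, 11 were higher and 11 lower. Beside Pgr, Nr2f1 (1.98) was higher, and Esrrg (-5.43) and the vitamin D receptor Vdr (-3.65) were lower.

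Receptor tyrosine kinases, which receive growth factor signals, were called in both directions, with 16 of 50 higher and 19 lower. Ddr2, a collagen receptor, was 2.14, 1.46, 1.41 and 1.94 in 2151R and -3.77 to -1.47 (median -2.59) in 2208L (difference 4.31, SE 0.35, limma adjusted p = 3.67e-07). Fgfr2 (3.14, SE 0.60), Egfr (2.88, SE 0.51) and Pdgfra (2.10, SE 0.39) were higher without overlap. Epha1 (-5.66), Fgfr4 (-5.56), Erbb3, Epha7 (-4.23) and the stem cell factor receptor Kit (-3.44) were lower. Of 11 Eph receptors in the table, 8 were lower and 1 higher. Met (0.03), Fgfr1 (0.13) and Pdgfrb (-0.01) had limma adjusted p-values of 0.942, 0.691 and 0.975. Met was 4.95, 4.09, 4.43 and 4.85 in 2151R and 3.88 to 5.05 (median 4.59) in 2208L, so the groups overlapped.

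Of 42 growth factors, 16 were higher and 6 lower. Gdnf, a neurotrophic ligand, was 5.54, 5.02, 5.09 and 5.26 in 2151R and -3.17 to -0.76 (median -1.80) in 2208L (difference 7.02, SE 0.39, limma adjusted p = 8.24e-09). Vegfc (3.38), which drives lymphatic growth, and Ereg (3.15), a ligand of Egfr, were higher, and Tgfa (-4.45), another ligand of Egfr, Pdgfb (-1.64) and Pdgfc (-1.61) were lower. In the Notch and Hedgehog list, 10 of 28 were higher and 7 lower, and Hedgehog members led the higher side. Gli1, a factor and target of Hedgehog signalling, was 3.99, 3.74, 3.85 and 3.48 in 2151R and -3.38 to 1.27 (median -1.21) in 2208L (difference 4.97, SE 0.70, limma adjusted p = 6.28e-05). Gli2 (3.11), the ligand Dhh (3.11) and the coreceptor Gas1 (2.97) were higher, and the coreceptor Boc was lower (-1.80). The receptor and usual target Ptch1, named after its value was seen, did not pass the test (0.13, limma adjusted p = 0.671).

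In the Wnt list, 16 of 48 were lower and 9 higher. The receptors Fzd9 (-7.78), Fzd6 (-3.88) and Fzd5 (-3.28) and the receptor-removing ligase Rnf43 (-5.31) were lower, and the ligands Wnt10b (3.75) and Wnt10a (3.38) and the inhibitor Dkk2 (3.35) were higher. Wnt10a did not pass when the variance was fitted with a trend on the mean value (limma adjusted p = 0.479). Of 58 genes of the TGF-beta and BMP pathway, 16 were higher and 12 lower, led by Bmp2 (3.22) and Gdf11 (3.04) above and by Bmp5 (-3.15) and the target Id2 (-2.84) below. Of 57 axon guidance genes, 22 were higher and 17 lower. Sema3a, a repulsive guidance ligand, was 5.34, 4.54, 5.06 and 5.32 in 2151R and -2.85 to 0.00 (median -0.70) in 2208L (difference 6.09, SE 0.46, limma adjusted p = 1.57e-07). Plxna4 (4.42), a receptor subunit for such ligands, was higher, and Sema3b (-7.12) lower.

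Protocadherins, adhesion molecules that label single neurons, were higher as a family, with 31 of 49 higher and 4 lower and a median difference of 1.57. Of 22 genes of the gamma cluster, 19 were higher, and the 22 differences ran from -0.06 to 4.55. Pcdhga12 was 3.43, 2.83, 2.60 and 3.43 in 2151R and -3.90 to 0.59 (median -1.01) in 2208L (difference 4.55, SE 0.76, limma adjusted p = 0.000253), with no overlap. Genes of that cluster share their last exons, so reads of 1 can be assigned to another and the members are not independent. Outside the clusters Pcdh17 was higher (5.31) and Pcdh10 (-4.69) and Pcdh18 (-2.86) lower.

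Genes induced by interferon, the cytokine alarm against viruses, were lower in 2151R. Of 36, 23 were lower and 3 higher, with a median difference of -1.18, and 20 lay below all samples of 2208L. Isg15, a ubiquitin-like protein, was -0.58, -0.02, -0.86 and -0.56 in 2151R and 1.25 to 2.70 (median 2.14) in 2208L (difference -2.48, SE 0.36, limma adjusted p = 7.77e-05). Rsad2, which encodes the antiviral enzyme viperin, was 0.12, 0.29, -0.68 and -0.12 against 1.97 to 3.51 (median 2.47) (difference -2.63, SE 0.28, limma adjusted p = 4.86e-06). Irgm1 (-2.90) and Cmpk2 (-2.80) were lower, and the guanylate-binding proteins Gbp7 (1.20) and Gbp2 (1.04) higher. Against PBS 20 were lower and 2 higher, and against 3day nt 24 and 3. Without the 3 samples high in muscle genes, 16 were lower and 2 higher.

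The letters GAAANNGAA, the core of the element that interferon factors bind, were searched on both strands in the same windows. They were in 15 of 31 promoters of interferon stimulated genes (48.4%), from 27 of the 36 genes, against 7.13% of all promoters. The 120 bases before the start sites of Isg15, at chr4:156200819-156200938 (minus strand), and Rsad2, at chr12:26456453-26456572 (minus strand), are shown because both genes were lower in every sample of 2151R than in any of 2208L. The matches, which overlap each other in Isg15, and the reverse complement in Rsad2 are in capitals.
Isg15: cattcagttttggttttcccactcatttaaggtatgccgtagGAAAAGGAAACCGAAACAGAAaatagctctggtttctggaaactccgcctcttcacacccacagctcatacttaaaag
Rsad2: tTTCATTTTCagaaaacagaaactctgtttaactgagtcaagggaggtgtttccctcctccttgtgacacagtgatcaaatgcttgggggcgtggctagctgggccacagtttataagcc

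The sensors and factors upstream of these genes were called in both directions, at shares near those over all genes (26.1% higher and 22.7% lower). Of 28 sensors and interferon factors, 8 were higher and 6 lower, and this split changed to 6 and 8 with each sample centred on its median and to 5 and 10 after quantile normalization. Irf7, a factor that is itself induced, was 0.47, 1.07, -0.05 and -0.13 in 2151R and 1.27 to 2.25 (median 1.98) in 2208L (difference -1.53, SE 0.30, limma adjusted p = 0.000816). The receptor of type III interferon, Ifnlr1 (-6.86), and the RNA sensor Tlr3 (-1.88) were lower. The DNA sensor Cgas (0.92), the RNA sensor Tlr7 (1.90) and Jak1 (1.13) were higher. Ifih1 (-0.46, limma adjusted p = 0.053) did not pass the test, but passed against PBS (-0.57, limma adjusted p = 0.0369) and without replicate 2 of 2151R (-0.54) or replicate 6 of 2208L (-0.51). Its call against PBS was lost without replicate 3 (-0.47) or 4 of 2151R (-0.52) or replicate 2 of 2208L (-0.39).

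Genes of antigen presentation were more often lower than higher. Of 20 genes of the class I pathway, 8 were lower and 1 higher. B2m, the shared light chain, was the higher one, with 1.14, 1.09, 0.89 and 1.07 in 2151R and -0.37 to 0.34 (median 0.02) in 2208L (difference 1.02, SE 0.17, limma adjusted p = 0.000309). The immunoproteasome subunit Psmb8 (-1.62), H2-T23 (-1.59) and the peptide transporter Tap1 (-1.15) were lower, and their regulator Nlrc5 did not pass the test (0.31, limma adjusted p = 0.518). Of 11 class II genes, 7 were lower, with 6 against PBS and 8 against 3day nt. Ciita, the master regulator of class II, was 0.00, -0.01, -0.87 and -0.41 in 2151R and 0.60 to 1.92 (median 1.59) in 2208L (difference -1.74, SE 0.30, limma adjusted p = 0.000296), and the invariant chain Cd74 differed by -2.07.

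**Figure D3:**
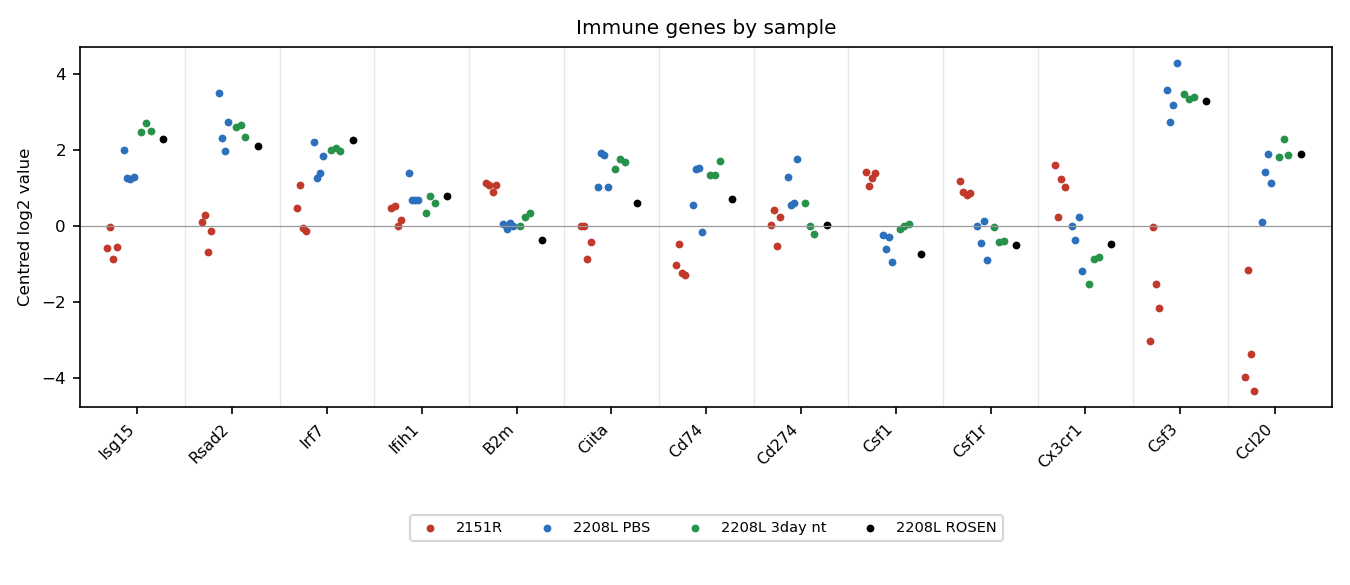
Deposited centred log2 values of 13 immune genes in the 12 samples, with colours as in the plot of epithelial and mesenchymal genes. The samples of 2151R lie below all of 2208L at Isg15, Rsad2, Irf7, Ciita, Cd74, Csf3 and Ccl20, above them at B2m, Csf1, Csf1r and Cx3cr1, and among them at Ifih1 and Cd274.

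Signals for myeloid cells differed by type. Csf1, the growth factor of macrophages, was 1.41, 1.05, 1.27 and 1.40 in 2151R and -0.94 to 0.04 (median -0.27) in 2208L (difference 1.64, SE 0.21, limma adjusted p = 2.65e-05), and Il34, the second ligand of its receptor, differed by 2.06. Csf3, the growth factor of neutrophils, was -3.01, -0.02, -1.53 and -2.14 against 2.74 to 4.28 (median 3.37) (difference -5.09, SE 0.44, limma adjusted p = 6.89e-07). Of 33 chemokines, 9 were lower and 5 higher, but 8 lower and 10 higher against PBS. They include Ccl20 (-4.76), Ccl17 (-3.65) and Cxcl10 (-1.88) lower and Ccl28 (3.28) and Cxcl12 (1.41) higher. Ccl2 was higher (1.73, SE 0.45, limma adjusted p = 0.00644), but the groups overlapped, and the call was lost against 3day nt (0.90, limma adjusted p = 0.107) and in the check on titles with NT, nt or PBS (1.45). That check also ended the call of Cxcl10 (-1.97). Of 16 chemokine receptors, 4 were higher and 2 lower. Of 54 interleukins, their receptors and colony stimulating factors, 14 were higher and 13 lower, with 13 and 14 against 3day nt, among them Il23a (-6.54) and Il24 (-5.02) below and Il11 (2.14) above.

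Markers of the cells that use these signals are given beside them. Of 12 macrophage markers, 8 were higher, with 7 against PBS, and 5 higher and 1 lower against 3day nt. Their mean ran from 0.54 to 0.97 in 2151R and from -1.34 to 0.17 in 2208L. Csf1r, the receptor of Csf1, was 1.18, 0.91, 0.82 and 0.87 against -0.89 to 0.12 (median -0.41) (difference 1.26, SE 0.23, limma adjusted p = 0.00059). Of 9 neutrophil markers, 5 were lower, with 8 against PBS and 3 against 3day nt. Their mean ran from -1.25 to 0.14 in 2151R and from -0.01 to 2.62 in 2208L, so the groups overlapped. Among 6 NK cell markers, 4 were higher, with 5 against PBS and 2 against 3day nt. Their means ran from 1.49 to 1.92 against -2.06 to 1.54, which overlap. Mast cell markers were higher at 3 of 4, the fourth being Kit, and Mcpt2 was 6.72, 5.93, 6.66 and 5.60 in 2151R and -3.56 to 0.00 (median -2.53) in 2208L. Of T cell markers 2 of 11 were higher, of B and plasma cell markers 1 of 6, and of endothelial markers 6 of 10. The endothelial count was 5 against PBS and 3 against 3day nt. Dendritic cell markers had 1 of 7 higher and 2 lower. The part of these cells in the immune gene differences was not tested.

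Of 23 immune checkpoint genes, 6 were lower and 5 higher, with 7 and 8 against PBS. Vtcn1 (-2.76), a ligand of the B7 family, and the receptor Lag3 (-2.31) were lower and the costimulatory ligand Tnfsf9 (2.03) was higher. In the check on titles with NT, nt or PBS, Vtcn1 was not called (-1.87). Cd274, which encodes PD-L1, was 0.04, 0.42, -0.54 and 0.24 in 2151R and -0.21 to 1.77 (median 0.58) in 2208L and did not pass the test (-0.54, limma adjusted p = 0.204), but was lower than in PBS (-1.02, limma adjusted p = 0.0171). The call against PBS was lost without replicate 3 of 2151R (-0.82, limma adjusted p = 0.0516), which is high in muscle genes. Of 26 complement genes, 7 were higher and 2 lower, with Masp1 (2.94) above and clusterin, Clu (-4.05), below.

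Mitosis genes were higher in 2151R by small steps. Of 30, 26 were higher, with a median difference of 0.96, and 29 were higher against PBS and 22 against 3day nt. Top2a, the topoisomerase of dividing cells, was 0.96, 0.07, 0.61 and 0.68 in 2151R and -1.07 to 0.09 (median -0.25) in 2208L (difference 0.92, SE 0.25, limma adjusted p = 0.00866), and replicate 2 of 2151R lay within the range of 2208L. The spindle motor Cenpe (1.94), the cytokinesis gene Anln (1.99), Kif20a (1.62) and the factor Foxm1 (1.62) were named from the members with no overlap. The 30 genes had a mean from 0.53 to 1.03 in 2151R and from -0.89 to -0.06 in 2208L. Of 30 genes of G1/S and DNA replication, 11 were higher and 2 lower, with 18 and 1 against PBS and 8 and 4 against 3day nt. Pole (1.45) and Ccne2 (1.20) were higher and Cdc25a (-0.84) lower.

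The letters CCAAT, which the factor NF-Y binds, were in the 250 bases before 21 of 27 start sites of mitosis genes (77.8%), from 25 of the 30 genes, against 33.8% of all promoters. TTTGAA, the core of the element of the Foxm1 and MuvB regulators of mitosis genes, was in 11 of 27 (40.7%) against 16%. AACCGGTT, an element of grainyhead factors, was in 0.258% of promoters of genes lower in all 3 comparisons with no overlap (7 of 2715), in 0.195% of those of all genes tested and in 0.116% of all promoters. Top2a at chr11:99024190-99024309 (minus strand), Kif11 at chr19:37376262-37376381 (plus strand) and Ttk at chr9:83834569-83834688 (plus strand) are shown as examples of this list, chosen after the values were seen, with CCAAT or its reverse complement ATTGG in capitals over 120 bases. Kif11 drives spindle poles apart and Ttk is a spindle checkpoint kinase, and they differed by 0.83 and 0.77. Top2a was not called without the 3 samples high in muscle genes (0.82), nor Kif11 in the check on titles with NT, nt or PBS (0.83).
Top2a: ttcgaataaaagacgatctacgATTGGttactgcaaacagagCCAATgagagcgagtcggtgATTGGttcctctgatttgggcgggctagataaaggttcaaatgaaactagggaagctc
Kif11: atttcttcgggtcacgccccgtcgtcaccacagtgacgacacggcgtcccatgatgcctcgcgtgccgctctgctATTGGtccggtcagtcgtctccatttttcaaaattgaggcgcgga
Ttk: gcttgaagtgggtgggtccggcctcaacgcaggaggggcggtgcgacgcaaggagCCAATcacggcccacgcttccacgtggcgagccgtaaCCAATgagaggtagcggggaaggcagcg

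Among 19 G1 cyclins, inhibitors and Rb family genes, 6 were higher and 2 lower. Cdk6, a kinase of G1, differed by 1.75 (SE 0.27, limma adjusted p = 0.000111), Mycl by 3.12 and Ccnd1, encoding cyclin D1, by 1.23 (SE 0.25). Ccnd3 was lower (-0.95). Myc was 0.47, 0.21, 0.07 and 0.20 in 2151R and -0.88 to -0.15 (median -0.34) in 2208L (difference 0.66, SE 0.20, limma adjusted p = 0.0143), and that call was lost without replicate 1 of 2151R (0.58), in the check on titles with NT, nt or PBS (0.51) and against 3day nt (0.56, limma adjusted p = 0.0755). Rb1, the retinoblastoma gene, did not pass the test (-0.33, limma adjusted p = 0.388), but 2151R was lower than PBS (-0.85, limma adjusted p = 0.000349) and higher than 3day nt (0.41, limma adjusted p = 0.0348). The Rb1 call against 3day nt was lost without replicate 1 or 2 of 2151R and without replicate 6, 7 or 8 of 2208L. Cdkn2a did not pass the test either (-0.09, limma adjusted p = 0.736), but was lower than in 3day nt (-0.47, limma adjusted p = 0.0467), a call lost on leaving out any 1 of the 7 samples compared. Ccnd2 (-0.23, limma adjusted p = 0.496) and Mycn (0.36, limma adjusted p = 0.403) did not pass the test. After quantile normalization Ccnd2 was called higher. Of 24 p53 target genes, 7 were higher and 8 lower, with Eda2r (3.60) and Polk (1.86) above and Perp and Bbc3 (-1.65) below. Of 18 Bcl2 family genes, 6 were lower and 2 higher, Bmf (-2.25) and Bok (3.68) being the most different in each direction.

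Subunits of the respiratory chain and of the ribosome were more often lower than higher, and the counts depended on the samples used. Of 81 subunits of the respiratory chain and ATP synthase, 31 were lower and 3 higher. Against PBS 15 were lower and 6 higher, and against 3day nt 59 were lower. Of 83 ribosomal protein genes, 31 were lower and 1 higher, with 22 and 14 against PBS and 58 lower against 3day nt. Replicates 6 and 8 of 2208L, both titled 3day nt, are high in muscle genes. Without the 3 samples high in muscle genes, 15 respiratory and 23 ribosomal genes were lower, and in the check on titles with NT, nt or PBS, 7 and 13. The respiratory count was 17 without replicate 1 and 19 without replicate 4 of 2151R. Ndufa5, a complex I subunit, stood apart from the rest at -5.48 (SE 0.28, limma adjusted p = 3.9e-09), with -1.41, -1.08, -0.92 and -1.32 in 2151R and 3.42 to 4.88 (median 4.40) in 2208L. It is followed by Ndufb11 (-1.55) and Ndufc2 (-1.53).

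**Figure D4:**
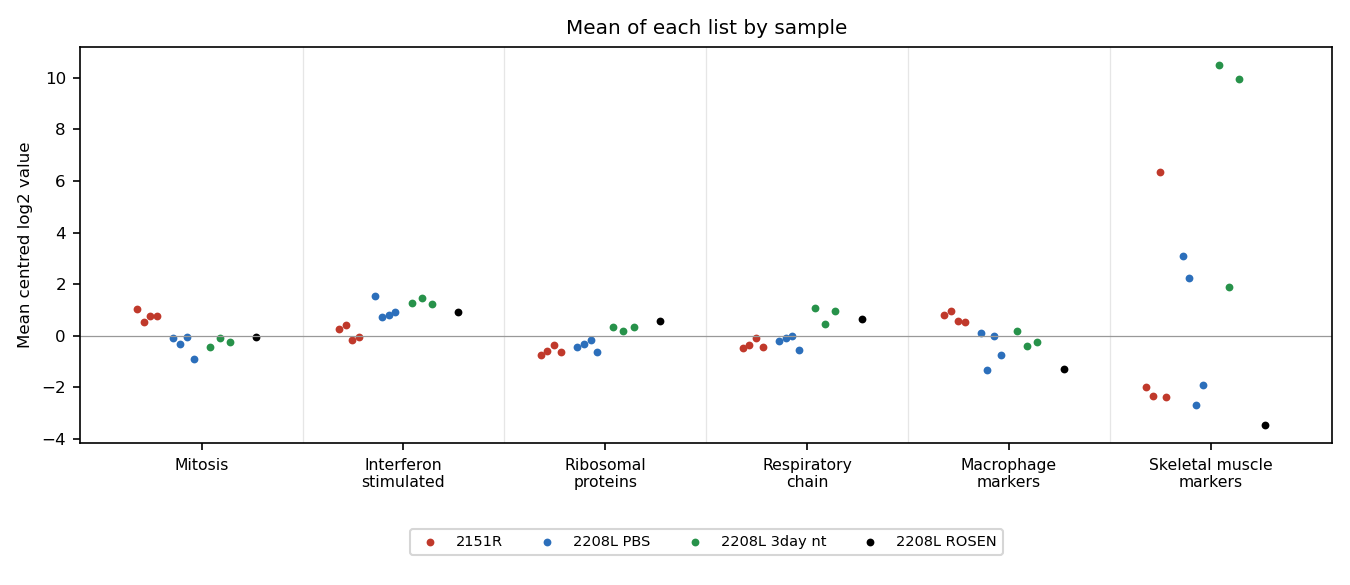
Mean of the deposited centred log2 values over the genes of 6 lists in each of the 12 samples, with colours as above. Mitosis genes are higher and interferon stimulated genes lower in the 4 samples of 2151R than in any of 2208L, while the ribosomal and respiratory means overlap between the models. Skeletal muscle markers are high in 1 sample of 2151R and 2 of 3day nt.

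Of 29 genes of glycolysis and hypoxia, 11 were lower and 2 higher, with 8 and 7 against 3day nt, led by the aldolase Aldoc (-6.33), Pfkp (-1.78) and Pgk1 (-1.52). In the check on titles with NT, nt or PBS, Pfkp was not called (-1.81). Cholesterol synthesis (3 of 23 higher and 6 lower, against PBS 5 and 2) and fatty acid genes (6 of 32 higher, 9 lower) lay near or under the share over all genes. Among the latter, Elovl7 (-5.35) and Fabp5 (-3.44) were lower and the carnitine transferase Cpt1a (1.38) higher. Adipocyte markers were higher at 3 of 9, with 8 against PBS, while against 3day nt limma called 0, and 0 also at an unadjusted p under 0.05. Their mean ran from 2.0 to 5.17 in 2151R and from -2.85 to 3.19 in 2208L, and their part in the lipid gene differences was not tested. Of 53 glutathione and Nrf2 genes, 15 were higher and 14 lower, with 13 and 16 against 3day nt. Slc7a11 (2.01), the cystine importer, and Srxn1 (2.96) were higher, and Nfe2l3 (-5.66) and Mgst1 (-4.26) lower.

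Drug transport genes differed in opposite directions. Of 36 ABC transporters, 13 were higher and 6 lower. Abcb1b, which with Abcb1a encodes the multidrug efflux pump of mice, was 5.26, 4.58, 4.89 and 4.98 in 2151R and -1.14 to 0.00 (median -0.46) in 2208L (difference 5.44, SE 0.23, limma adjusted p = 4.83e-10). Abcb1a was 2.79, 2.45, 1.89 and 2.12 against -2.77 to 0.00 (median -1.10) (difference 3.40, SE 0.42). Abcg2, the breast cancer resistance pump, was lower (-1.95, SE 0.23, limma adjusted p = 1.14e-05), with -1.62, -1.01, -1.33 and -1.54 against -0.24 to 0.99 (median 0.65). The groups did not overlap at these 3 genes, which was a condition for naming them. The related genes Abcb1a and Abcb1b may share some reads, so how their difference is split is uncertain. Of 42 cytochrome P450 and aldehyde dehydrogenase genes, 12 were higher and 7 lower, with Aldh1l1 (4.24) and Aldh3a1 (3.09) above and Cyp11a1 (-3.63) below. Solute carriers (75 of 241 higher, 74 lower) and ion channels (23 of 73 higher, 16 lower) were called in both directions, with Slc6a4 (5.25), the serotonin transporter, and the calcium channel subunit Cacnb2 (6.07) among the higher. The count of higher channels was 14 or 15 without replicate 1, 2 or 4 of 2151R, and 9 were higher and 13 lower in the check on titles with NT, nt or PBS.

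Of 53 serpins, kallikreins and S100 proteins, 17 were lower and 6 higher, with Wfdc2 (-6.86) and S100a14 (-5.03) below. Of 31 imprinted genes, which are expressed from 1 parental copy, 8 were lower and 4 higher. H19, a growth-restraining RNA, was -2.67, -2.94, -2.07 and -2.42 in 2151R and 0.11 to 2.57 (median 1.80) in 2208L (difference -4.13, SE 0.44, limma adjusted p = 4.73e-06), and Phlda2 (-6.44) and Usp29 (-6.09) were lower, while Peg10 (1.61) and Nnat (2.08) were higher. Of 335 Zfp genes, 62 were higher and 84 lower, with 41 higher without replicate 1 of 2151R. The balance turned between the checks, with 49 higher and 108 lower against PBS and 102 and 70 against 3day nt, and it was 20 and 62 in the check on titles with NT, nt or PBS.

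Neighbouring genes differed together in some regions. Genes were placed by symbol in the RefSeq annotation of GRCm38.p6, the same assembly as the mm10 of the submitters' processing notes, which held 16180 of them (93.7%), and taken in 261 windows of 60 genes. The median difference of a window was 0.09 at the median and its SD over windows was 0.349. The window at bases 3330738 to 18879589 of chromosome 6 had the highest median, 1.35, with 37 genes higher and 6 lower. It holds Peg10 and Sgce (1.0), and also Met, which did not pass the test. The window medians ran from 1.49 to 1.79 in 2151R and from -0.39 to 0.12 in 2208L. A window on chromosome 18 followed (1.21, 40 higher and 3 lower), with the protocadherin gamma cluster and the later part of the beta cluster. The beta genes up to Pcdhb13 lie in the window before it, which had a median of 0.02, with 9 higher and 12 lower. The lowest median, -1.06, was that at bases 52102949 to 62382863 of chromosome 6, with 31 genes lower and 4 higher, where the Hoxa cluster and Abcg2 lie. It was followed by a window of chromosome 9 from bases 108002648 to 110525174 (-0.83, 40 lower and 2 higher). Abcb1a, Abcb1b, Cdk6 and Sema3a share a window of chromosome 5 (median 0.78). The windows were picked by their medians and carry no test, and no copy number was measured.

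The checks against the subsets of 2208L kept the direction of the list medians at these lists. Tight junction genes had a median of -5.39 against PBS and -4.47 against 3day nt, epithelial factors -5.68 and -5.34, mitosis genes 1.01 and 0.98, and interferon stimulated genes -0.92 and -1.53. Class II genes had -1.37 and -2.06. Some marker lists differed more between the checks. Skeletal muscle markers had a median of -0.34 against PBS and -7.69 against 3day nt, with 8 of 11 lower. Adipocyte markers had 5.92 and 1.19, and mast cell markers 6.59 and 3.03. At other lists the median changed sign between PBS and 3day nt. Among them were chemokines (0.25 and -0.44), cholesterol synthesis (0.20 and -0.50), T cell markers (1.49 and -0.17) and dendritic cell markers (1.16 and -0.90).

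**Figure D5:**
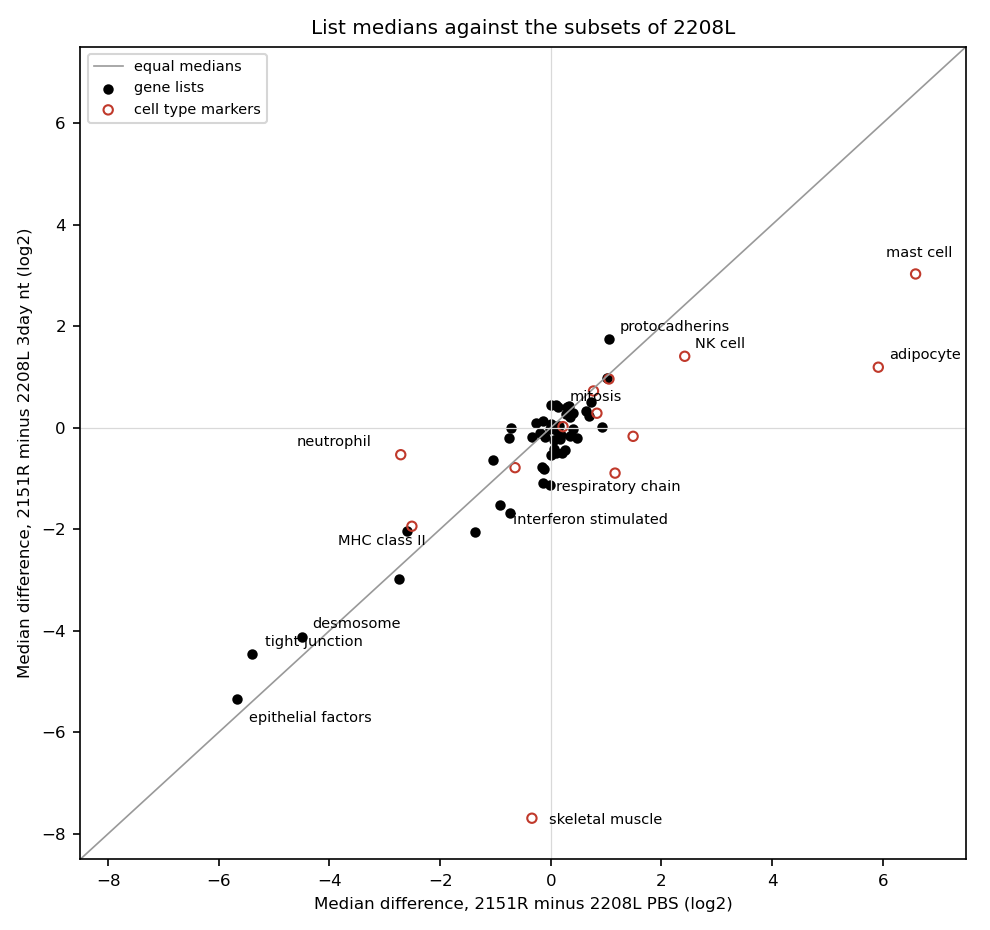
Median difference of each gene list in 2151R minus 2208L PBS (horizontal axis) and in 2151R minus 2208L 3day nt (vertical axis), in log2 units. Each point is 1 list, with lists of cell type markers as open circles, and the line marks equal medians. The tight junction, desmosome and epithelial factor lists lie near the line at the lower left, and muscle, mast cell and adipocyte markers lie below it.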

How the data were processed

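Polyadenylated RNA of mouse mammary tumours was sequenced, and the labels' protocols name a column kit for RNA and capture on oligo-dT beads. Per the submitters' processing notes, STAR, Salmon and the build mm10 were used; versions, the normalization and any offset added before the logarithm are not given in the sources used here. The authors deposited 1 table of log2 values centred per gene, with no counts, so the depth and its precision are unknown. At 630 genes, 2 or more of the 12 samples share a value exactly.

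The values were used as deposited. All 17271 genes were fitted with limma 3.58.1 in R 4.3.3 over all 15 samples with 1 mean per model, and the checks used 1 mean per model and subset of 2208L. P-values were adjusted by Benjamini and Hochberg, with a threshold of 0.05, and a difference is 2151R minus 2208L. No batch was used as a term, and the library range of 2151R cannot be told apart from the model. The code was tested on simulated data. The 50 gene lists, 13 marker lists and the members were chosen with earlier results of these data known. Genes are named by 1 rule: the 10 largest differences in each direction among genes called in all 3 comparisons, with no overlap and no shared value, up to 4 per list and direction by the same conditions, and 54 regulators and targets whatever their values. Genes outside it are said to be so, and some genes that the rule names are not reported here. In 250 bases before each start site, 5 motifs were searched. Other scalings, variance models, filters and subsets of samples were run.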

Additional observations from a re-analysis of the deposited data

Results flagged for a closer look

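The 249 genes named with values and 13 marker lists, each examined in both models, gave 524 groups. Of these, 27 had a sample far from the rest by Dixon's test at the 95% level. Chance flags about 1 in 20 groups, so 27 is near the count that chance gives. In 2208L, the highest of the 8 samples stood apart at Ccl2 (1.03), Ccnd1 (0.60), Cldn3 (2.02), Ifih1 (1.39), Krt18 (1.13), Krt8 (1.21), Ovol1 (0.97) and St14 (1.54). The lowest of the 8 stood apart at Abcg2 (-0.24), Aldh3a1 (-4.78), Ccne2 (-0.96), Cdc25a (-0.28), Igf2bp1 (8.70), Lag3 (0.54), Nlrc5 (-1.40), Nnat (-3.51), Pcdh10 (-0.73), Srxn1 (-0.70) and Ttk (-0.93). Of the 4 samples of 2151R, the lowest stood apart at Cdh1 (-6.13), Col5a3 (1.48), Egfr (0.30), Esr1 (0.78), Il23a (-5.16), Msx3 (5.66) and Snai1 (-0.40). The mean of the skeletal muscle markers stood apart in replicate 3 of 2151R (6.35). All are centred log2 values.

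At 41 of the named genes, the PBS and 3day nt samples of 2208L differed by limma at an adjusted p-value under 0.05, so that the difference of 2151R from PBS was not the same as that from 3day nt. The first minus the second was positive at Msx3 (5.35), Eya1 (3.95), S100a4 (3.27), Mcpt2 (2.69), Wnt10b (1.99), Itgb7 (1.90), Mycl (1.51) and Ccl2 (1.33). It was also positive, by less, at Krt79 (1.27), Isg15 (1.11), Ndufa5 (0.90), Il11 (0.88), H2-T23 (0.85), Pdgfb (0.70), Cdkn2a (0.68) and Lsr (0.54). It was negative at Pcdhga12 (-2.13), Csn3 (-1.99), Hoxa6 (-1.93), Pfkp (-1.81), H19 (-1.66), Col4a6 (-1.49), Rb1 (-1.25), Hoxa13 (-1.16) and Peg10 (-1.12). Smaller negative values were found at Tlr7 (-1.11), Boc (-1.09), Cpt1a (-1.08), Erbb3 (-1.04), Fzd5 (-1.01), Grhl2 (-0.93), Cdh2 (-0.93), Tgfa (-0.91) and Muc1 (-0.89). The rest were Pcdh10 (-0.83), Pdgfc (-0.82), Fgfr1 (-0.73), Polk (-0.61), Pgk1 (-0.58), Jak1 (-0.57) and Snai1 (-0.57). At Rb1 the differences from PBS and from 3day nt had opposite signs, -0.85 and 0.41, but the call of the latter was lost on leaving out some single samples. The titles of the 2 subsets also differ in library numbers, and 2 of the 3 samples of 3day nt are high in muscle genes, so these cannot be told apart from the subset. The share of all genes that differ between PBS and 3day nt is not reported here. The count of 41 is therefore not read as high or low for the named genes.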

How the results depend on the processing

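Other settings left the counts of 4508 genes higher and 3926 lower within 1.5 times, except as follows. A minimum difference of 1 log2 unit left 2585 higher and 2566 lower against 2208L, 2624 and 2545 against PBS, and 2966 and 3133 against 3day nt, since it only removes calls. In the check on titles with NT, nt or PBS, 2658 were higher and 2808 lower, and without the 3 samples high in muscle genes 2434 and 2226 against 3day nt; both rest on fewer samples. Leaving out 1 replicate at a time gave 3544 to 4576 higher and 3441 to 4168 lower against 2208L, 3969 to 4672 and 3428 to 4119 against PBS, and 3942 to 4682 and 3794 to 4480 against 3day nt. Centring each sample on its median gave 4312 higher and 4330 lower, quantile normalization 4519 and 4286, and sample weights 6049 and 5320. Ccnd2, which did not pass as reported, was higher after quantile normalization against 2208L (0.83), PBS (0.72) and 3day nt (1.13), and the cause was not tested. Of the 249 named genes, 222 kept both the sign of their difference and their side of the threshold against 2208L in every setting. Most of them were named only because they were called in all 3 comparisons without overlap. Their count therefore follows largely from the choice of genes and does not measure how stable calls are in general. The other 27 include genes that were never called and only changed sign. No paired analysis was possible because no replicate number is given in the sample titles. The depth is unknown, so what it limits cannot be stated.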
